A study of Rattus norvegicus with 6 samples.

Results

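The genes described here are those of a small group of vasoactive peptide systems, namely the receptors Avpr1a, Crhr2, Ednra, Ednrb and Agtr1a, the ligand genes Edn1 and Edn3, and Agtrap, whose product binds the angiotensin receptor. They were taken by symbol from the table of the series, where all 8 have a row among 14607 listed genes. Vasopressin, endothelin and angiotensin II constrict arteries through receptors that couple mainly to Gq proteins, raise intracellular calcium and activate myosin light chain kinase. The urocortins, relatives of corticotropin-releasing hormone (CRH), relax arteries through CRHR2, which couples mainly to Gs and cyclic AMP. Endothelin acts through the ETA receptor (Ednra), the main constrictor receptor of smooth muscle, and the ETB receptor (Ednrb), best known from endothelial cells and astrocytes.

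Messenger RNA was sequenced from 3 samples of vascular smooth muscle cells (VSMCs) and 3 samples of mid-capillary pericytes (mcPCs), freshly sorted from the cortex of untreated male Sprague-Dawley rats aged 4 to 5 weeks, with the cortices of 10 rats pooled in each of 3 isolations. Each isolation gave both cell types, arterioles on the filter and the filtrate of the same tissue, and the sample titles share a code between the cell types, so the 6 samples are not 6 separate pools of rats. VSMCs were captured with a lectin from arterioles kept on a filter, after removal of cells carrying CD31 or CD11b. mcPCs were the cells of the filtrate that remained after removal of cells carrying CD31, CD11b, GLAST or O4, so that any cell without these antigens stayed with them. Values are the authors' means of each cell type, so no SD between samples, no test and no value per sample can be given.

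Levels are given in TPM, a measure of transcript abundance that is corrected for transcript length and scaled to the same total in each library, and ratios between cell types as log2 of the mean normalized count plus 1 in mcPCs over that in VSMCs. Intervals are 95% intervals from the numbers of reads, which cover counting error only, and those of ratios were computed without the added 1. The mean depth was 61978061 assigned reads per VSMC sample and 47990230 per mcPC sample. Genes of erythrocytes took 66.6% of the TPM in mcPCs and 0.870% in VSMCs, which lowers the TPM of every other gene in mcPCs. The TPM of both cell types is printed side by side to show the level in each, and a deposited TPM pair can point the other way from the ratio, so the direction between cell types is read from the ratio of normalized counts.

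The sorted cells carried the transcripts that their labels call for. All 8 smooth muscle markers were at least 2-fold higher in VSMCs, with a median log2 ratio of -7.90, and their summed TPM was 45457 in VSMCs and 82.7 in mcPCs, with Tagln the most abundant in both. Of 10 general mural and pericyte markers, 6 were at least 2-fold higher in mcPCs and 2 in VSMCs (Notch3 and Mcam), with a median log2 ratio of 1.95. Pdgfrb, Cspg4 and Rgs5 reached 388, 95.2 and 1703 TPM in mcPCs, and the pericyte genes Kcnj8 and Abcc9 had log2 ratios of 6.17 and 6.52. Most of the markers of other cell types that have a row were also higher in mcPCs. Of 14 endothelial markers listed, 10 were at least 2-fold higher in mcPCs (median log2 ratio 4.16), as were all 6 listed markers of microglia and macrophages (median 5.76), 4 of 6 astrocyte markers (median 2.68) and all 16 erythrocyte markers (median 7.57). The endothelial markers summed to 651 TPM in VSMCs and 256 TPM in mcPCs, most of it Esam with 487 and 184 TPM and Slc2a1 with 114.6 and 23.9 TPM, whereas Cldn5 had 0.643 and 15.4 TPM. The astrocyte markers summed to 27.2 TPM in VSMCs, led by Aldoc and Fgfr3, and to 21.2 TPM in mcPCs, led by Slc1a3 with 12.7. Those of microglia and macrophages summed to 0.793 TPM in VSMCs and 27.1 TPM in mcPCs, led there by Ptprc with 15.1. These counts are of markers with a row in the table. Without a row were 2 of 16 endothelial markers (Ly6c1 and Pecam1) and 4 of 10 astrocyte markers (Aldh1l1, Mlc1, Slc1a2 and Slc6a11). The same held for 4 of 10 markers of microglia and macrophages (Aif1, Itgam, Mrc1 and Tnf) and 15 of 31 erythrocyte markers.

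The upstream sequences of Avpr1a and Crhr2 are shown because these genes had the largest ratios between the cell types among the 8. Each line gives the 250 bases before the annotated RefSeq start on assembly GRCr8, 5′ to 3′ on the strand of the gene. The Avpr1a sequence is chr7:59999493-59999742 on the plus strand and the Crhr2 sequence chr4:85581464-85581713 on the minus strand. Capitals mark matches to the motifs searched.
Avpr1a: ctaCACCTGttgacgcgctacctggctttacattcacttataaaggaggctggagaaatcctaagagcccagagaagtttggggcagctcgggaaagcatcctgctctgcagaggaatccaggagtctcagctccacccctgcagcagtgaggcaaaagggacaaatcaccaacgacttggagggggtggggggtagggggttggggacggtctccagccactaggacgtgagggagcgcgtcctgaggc
Crhr2: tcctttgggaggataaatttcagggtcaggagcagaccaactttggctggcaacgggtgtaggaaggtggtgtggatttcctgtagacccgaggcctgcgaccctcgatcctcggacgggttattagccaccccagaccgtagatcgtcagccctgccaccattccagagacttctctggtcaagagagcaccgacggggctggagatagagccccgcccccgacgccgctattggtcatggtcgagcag

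The motifs were the CArG box bound by serum response factor, TGACGTCA (the cyclic AMP response element), CANNTG (the E-box) and TGGGAA (bound by the Notch effector RBPJ), each read on both strands. In these 250 bases Avpr1a held a single E-box, 247 bases before the start, and Crhr2 held no match to any of them. Among 33469 promoter windows of the same length, 65.5% held an E-box, 22.1% TGGGAA, 1.59% TGACGTCA and 1.5% a CArG box. The window of Crhr2 lies within the annotated span of the gene, before a start that is not its outermost. Promoters of 7 of the 8 genes were matched, Edn3 being the exception. None of the 7 held a CArG box or TGACGTCA, which says only that these letters are not in these windows.

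In VSMCs, transcripts of Ednra, Avpr1a and Crhr2 were abundant and those of the other genes were not. Ednra had an authors' mean of 146 TPM (counting interval 145 to 147), Avpr1a of 112 TPM (111 to 113) and Crhr2 of 90.9 TPM (89.7 to 92.2). These levels lay above 92.9%, 90.7% and 88.5% of the listed genes. Agtrap followed with 6.85 TPM, Edn3 with 3.55 TPM and Agtr1a with 1.46 TPM. Ednrb and Edn1 were at the lower end, with 0.286 TPM (0.219 to 0.367) from 62 reads and 0.173 TPM (0.110 to 0.259) from 23 reads over the 3 samples. Only the intervals of this last pair overlapped.

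In mcPCs the order was different, with Ednra alone at a high level. Its mean was 34.2 TPM (33.8 to 34.6), above 92.9% of the listed genes as in VSMCs, and 102.6 TPM once erythrocyte genes were left out. Agtrap came next with 4.55 TPM, above 56.1% of genes. Avpr1a had 1.82 TPM and Crhr2 1.07 TPM, levels that exceeded only 34.8% and 25.9% of genes. Below them were Edn3 with 0.798 TPM (0.711 to 0.892) and Ednrb with 0.656 TPM (0.578 to 0.741), whose intervals overlapped, then Edn1 with 0.348 TPM. Agtr1a was the lowest, with 0.0740 TPM (0.0503 to 0.105) from 31 reads over the 3 samples.

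**Figure D1:**
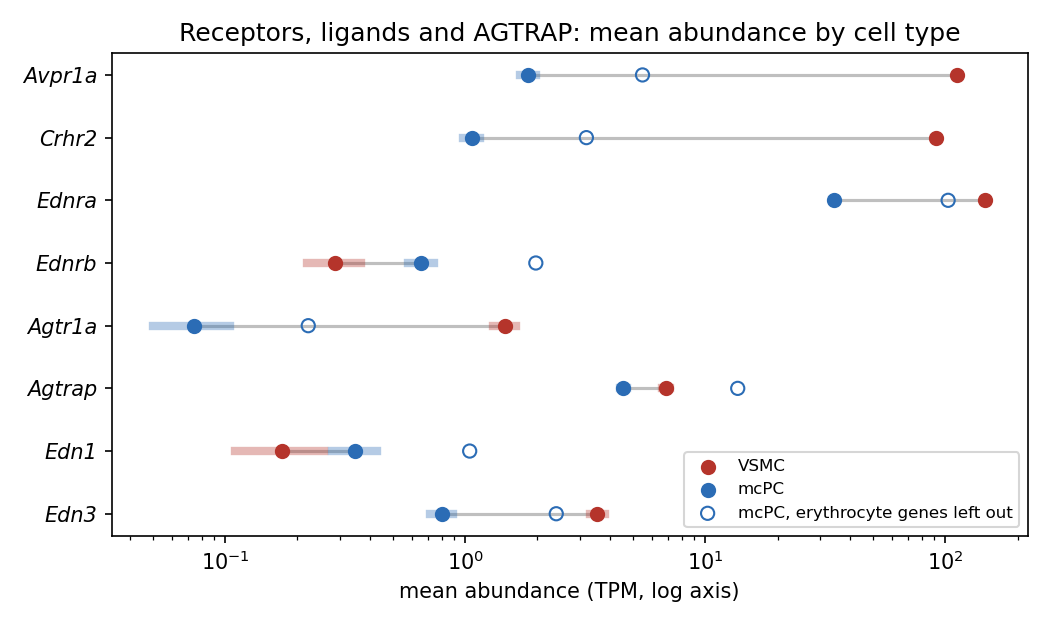
Mean abundance in TPM (log axis) of the 8 genes in VSMCs (red) and mcPCs (blue), with open circles for mcPCs after leaving out erythrocyte genes and pale bars for 95% counting intervals. Avpr1a and Crhr2 lie at 112 and 90.9 TPM in VSMCs and far lower in mcPCs, whereas Ednra is the most abundant of the 8 in both.

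Of the 8 genes, 3 were at least 2-fold higher in VSMCs (Avpr1a, Crhr2 and Agtr1a), against 13.8% of all listed genes, and 3 were at least 2-fold higher in mcPCs (Ednrb, Edn1 and Agtrap), against 21.6% of all listed genes. Ednra and Edn3 lay within the 2-fold limits. In VSMCs Ednrb and Edn1 were under 0.8 TPM, the limit below which the authors removed genes from their final dataset. Agtrap was under 2-fold on TPM without erythrocyte genes and at equal count totals, which leaves 2 genes higher in mcPCs, and TPM as deposited gave 0 in mcPCs and 5 in VSMCs. The median log2 ratio was -0.30 over the 8 genes and 0.01 over all listed genes. At 4-fold the numbers were 3 and 2, and 5.64% and 12.0% of all listed genes passed those limits.

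**Figure D2:**
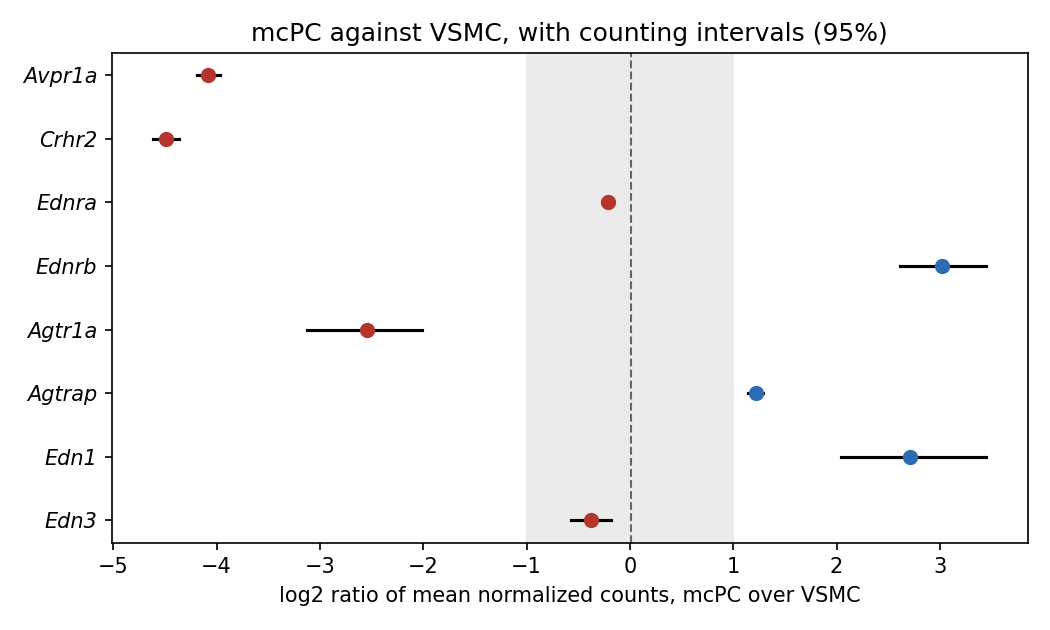
log2 ratio of mean normalized counts (without an added count), mcPC over VSMC, for each of the 8 genes. Bars are 95% counting intervals, the grey band marks less than a 2-fold difference and the dashed line the median of all genes. Avpr1a, Crhr2 and Agtr1a lie to the left of the band, Ednrb, Edn1 and Agtrap to its right.

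Avpr1a (ENSRNOG00000004400) encodes the V1a vasopressin receptor, the constrictor receptor of vascular smooth muscle. Its mean normalized count was 5402 in VSMCs and 319 in mcPCs, from 22762 and 671 reads over the 3 samples of each. The level was thus 16.9-fold higher in VSMCs (log2 ratio -4.08, interval -4.19 to -3.97). What was measured in mcPCs amounted to 5.91% of the VSMC level. For the 8 smooth muscle markers this percentage ran from 0.306% for Myh11, the myosin heavy chain of smooth muscle, to 2.49% for Des and 17.9% for Smtn, so that of Avpr1a was above all of them but Smtn. In such sorted samples, fewer expressing cells and less RNA per cell cannot be told apart.

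Crhr2 (ENSRNOG00000011145) encodes the receptor of urocortins 2 and 3, and of urocortin 1, which it shares with CRHR1. It had 5489 mean normalized counts in VSMCs and 244 in mcPCs, from 21397 and 557 reads. That is a 22.4-fold higher level in VSMCs (log2 ratio -4.48, interval -4.61 to -4.37), and the largest ratio among the 8 genes. The mean effective length assigned to Crhr2, an average over its annotated transcripts weighted by their abundance, was 1990 bases in VSMCs and 2411 bases in mcPCs, which is 21.2% longer. Crhr2 and Ednra were the only genes of the 8 for which it differed by at least 10%, as it did for 4.27% of all listed genes. The shares of the transcripts themselves were not used here.

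The ratio of Avpr1a to Crhr2 transcripts, which does not depend on scaling between the cell types, differed by less than that of either gene to Ednra. It was 1.23 in VSMCs (counting interval 1.21 to 1.25) and 1.71 in mcPCs (1.53 to 1.92). Ednra had 1.31 times the TPM of Avpr1a in VSMCs and 18.7 times in mcPCs (17.4 to 20.3), and 1.61 and 32.1 times the TPM of Crhr2.

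Ednra (ENSRNOG00000012721) had mean normalized counts of 16870 in VSMCs and 14518 in mcPCs, from 68311 and 33242 reads. The log2 ratio was -0.22 (interval -0.24 to -0.20), within the 2-fold limits. On other scales it ran from -2.09 on TPM as deposited, past 2-fold, through -0.67 at equal count totals and -0.53 on TPM without erythrocyte genes, to 0.062 on counts without erythrocyte genes, a scale with no correction for length. The counting interval is narrow because of the depth, but how far the samples of a cell type differed is not known from means. The mean effective length of Ednra was 3804 bases in VSMCs and 4330 bases in mcPCs, or 13.8% longer.

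Ednrb (ENSRNOG00000010997) had a mean normalized count of 14.8 in VSMCs and 120.0 in mcPCs, from 62 and 257 reads. It was 7.66-fold higher in mcPCs (log2 ratio 2.94, interval 2.61 to 3.44) and remained a rare transcript there. Ednra exceeded Ednrb in TPM 511-fold in VSMCs (399 to 667) and 52.1-fold in mcPCs (46.1 to 59.2). Of 14 endothelial markers with a row, 10 were also at least 2-fold higher in mcPCs, as were 4 of 6 astrocyte markers with a row. The log2 ratios of these 10 endothelial markers ran from 3.91 for Cdh5 to 6.28 for Cldn5. The other 4 were Flt1 at -0.78, Slc2a1 at -0.50, Ocln at -0.33 and Esam at 0.43. Among the astrocyte markers the log2 ratios were 7.11 for Slc1a3, 6.16 for Gja1, 3.10 for Gfap and 2.27 for Aqp4. The astrocyte marker Aldoc was at 0.16, and Fgfr3 lay the other way at -1.78. In mcPCs these last 4 had 0.270 TPM (Gfap), 0.0865 TPM (Aqp4), 4.41 TPM (Aldoc) and 1.11 TPM (Fgfr3). The other 4 genes of the astrocyte list, Aldh1l1, Mlc1, Slc1a2 and Slc6a11, have no row. The part of endothelial cells and astrocytes in the values of Ednrb was not tested.

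Agtr1a (ENSRNOG00000018346), the AT1a receptor of angiotensin II, was a rare transcript in both cell types. Its mean normalized count was 83.5 in VSMCs and 14.3 in mcPCs, which rests on 351 and 31 reads. It was 5.52-fold higher in VSMCs (log2 ratio -2.47, interval -3.13 to -2.01), with a log2 ratio of -1.45 on TPM relative to the median gene and -1.94 with a pseudocount of 10. Even in VSMCs the TPM of Ednra was 100.2 times that of Agtr1a (90.2 to 111.6). Agtrap (ENSRNOG00000008619), whose product promotes internalization of the AT1 receptor, showed the opposite direction, with 645 mean normalized counts in VSMCs and 1499 in mcPCs. The log2 ratio was 1.22 (interval 1.14 to 1.29), against 0.97 on TPM without erythrocyte genes, 0.66 at equal count totals and -0.58 on TPM as deposited. Agtrap had 4.69 times the TPM of Agtr1a in VSMCs and 61.4 times in mcPCs (43.2 to 90.6).

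The ligand genes were low in both cell types. Edn1 (ENSRNOG00000014361), which encodes endothelin-1 and is typical of endothelial cells, had 5.88 mean normalized counts in VSMCs and 38.6 in mcPCs, from 23 and 88 reads (log2 ratio 2.53, interval 2.04 to 3.45). Of the endothelial markers, 10 of 14 were at least 2-fold higher in mcPCs too, and their part in Edn1 was not tested. Edn3 (ENSRNOG00000007477), for endothelin-3, had 174.6 and 134.5 mean normalized counts, from 745 and 307 reads (log2 ratio -0.37, interval -0.57 to -0.18). In TPM, Edn3 exceeded Edn1 20.5-fold in VSMCs (13.6 to 32.6) and 2.29-fold in mcPCs (1.80 to 2.94).

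Within each cell type, the summed TPM of the 5 receptor genes was divided differently. Of 350.9 TPM in VSMCs, Ednra made up 41.7%, Avpr1a 31.9% and Crhr2 25.9%. Of 37.8 TPM in mcPCs, Ednra made up 90.4%, Avpr1a 4.82%, Crhr2 2.82% and Ednrb 1.73%. Agtr1a contributed 0.416% in VSMCs and 0.196% in mcPCs. These shares are free of the scaling between the cell types.

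**Figure D3:**
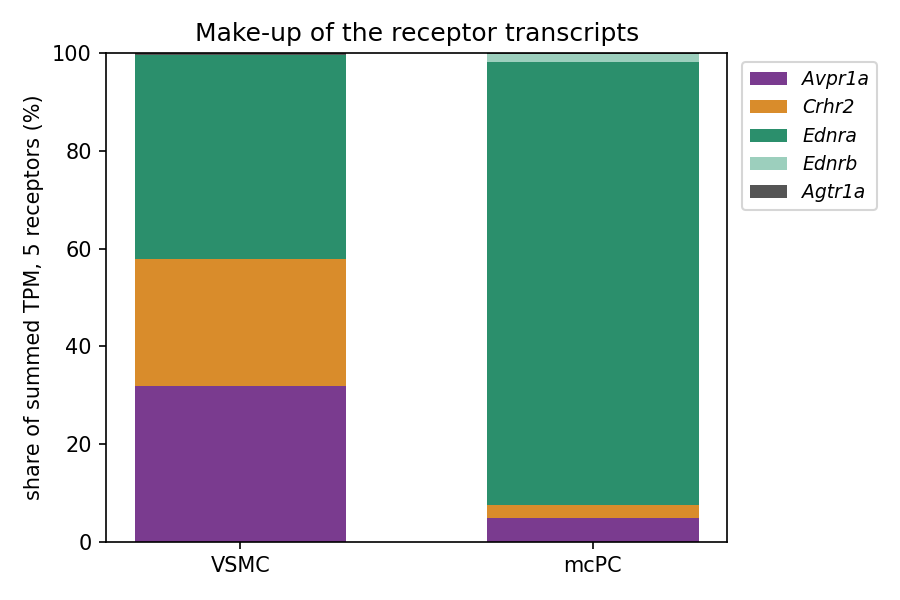
Share in percent of the summed TPM of Avpr1a, Crhr2, Ednra, Ednrb and Agtr1a taken by each, in VSMCs and in mcPCs (1 bar per cell type, authors' means). Ednra takes 41.7% in VSMCs and 90.4% in mcPCs, where Avpr1a and Crhr2 form a small part.

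Other genes of the same peptide systems were given from fixed lists. For vasopressin and oxytocin, Avpr1a and Lnpep were the listed genes among 7, and Avp, Oxt, Avpr1b, Avpr2 and Oxtr have no row. Avpr1a was thus the sole vasopressin or oxytocin receptor gene in the table. Lnpep, an aminopeptidase that cleaves both peptides, had 9.94 TPM in VSMCs against 1.63 TPM in mcPCs (log2 ratio -0.86).

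Of the CRH and urocortin genes, Crhr2, Crhbp and Ucn2 have a row, whereas Crh, Ucn, Ucn3 and Crhr1 do not. Crhbp, whose product binds and sequesters CRH and urocortin, had 4.44 TPM in VSMCs against 0.381 TPM in mcPCs (log2 ratio -1.75, interval -2.06 to -1.49). Ucn2, the gene of the CRHR2 ligand urocortin 2, went the other way, with 0.150 TPM in VSMCs, from 12 reads, against 17.5 TPM in mcPCs, from 2624 reads. Its log2 ratio was 8.26 (interval 7.87 to 9.64), and its level in mcPCs lay above 85.6% of listed genes. Receptor and ligand transcripts were therefore on opposite sides. Crhr2 had 608 times the TPM of Ucn2 in VSMCs (348 to 1176) and 0.0607 times in mcPCs. Erythrocyte genes had log2 ratios of similar size, such as 8.09 for Hba-a1, 8.21 for Hbb and 8.24 for Alas2, and the 6 markers of microglia and macrophages ran from 4.04 for Cx3cr1 to 9.50 for Ptprc, which is found in all leukocytes. The part of these cells in Ucn2 was not tested.

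Of 9 endothelin genes, 8 have a row, Edn2 being without one. None was at least 2-fold higher in VSMCs, and 5 were in mcPCs, where the shares over all listed genes were 13.8% and 21.6%. The median log2 ratio of the list was 1.83 and turned to -0.085 on TPM as deposited. Ece1, the enzyme that releases active endothelin from its precursor, was the most abundant of the list, with 185.9 TPM in VSMCs against 50.8 TPM in mcPCs (log2 ratio -0.039). Its relative Ece2 was far lower, with 3.40 and 2.12 TPM (log2 ratio 1.13). Mme, the gene of the peptide-degrading enzyme neprilysin, had 0.0735 and 0.143 TPM from 21 and 78 reads. Kel, which also cleaves big endothelin-3 and is a blood group gene of erythrocytes, had 0.276 and 21.6 TPM with a log2 ratio of 8.05, and is on the erythrocyte list as well.

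Of 14 genes of the angiotensin system, 10 have a row, and Mas1, Agtr1b and Cma1 are among those that do not. Agtr1a was the only one at least 2-fold higher in VSMCs, and 5 were at least 2-fold higher in mcPCs, against 13.8% and 21.6% of all listed genes. Their median log2 ratio was 0.65, which turned to -0.72 on TPM as deposited and was 0.077 with counts brought to an equal total. The aminopeptidases that trim angiotensins were far more abundant than the angiotensin receptors. Enpep, which turns angiotensin II into angiotensin III, had 128 TPM in VSMCs against 111.8 TPM in mcPCs (log2 ratio 1.63), and Anpep, which acts on angiotensin III, 74.7 and 138 TPM (log2 ratio 2.72). In mcPCs both enzymes lay above at least 97.8% of the listed genes. Ace, which makes angiotensin II and is typical of endothelium, had 0.0695 and 0.595 TPM, from 21 and 331 reads (log2 ratio 4.12). Agt, the precursor, had 1.11 and 0.270 TPM, and Agtr2, the other angiotensin II receptor, 0.140 and 0.0333 TPM from 46 and 21 reads. For Agt and Agtr2 the counting intervals of the ratio, -0.44 to 0.23 and -1.13 to 0.47, include 0. Atp6ap2, an accessory subunit of the vacuolar proton pump, had 38.7 and 11.6 TPM (log2 ratio 0.081).

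**Figure D4:**
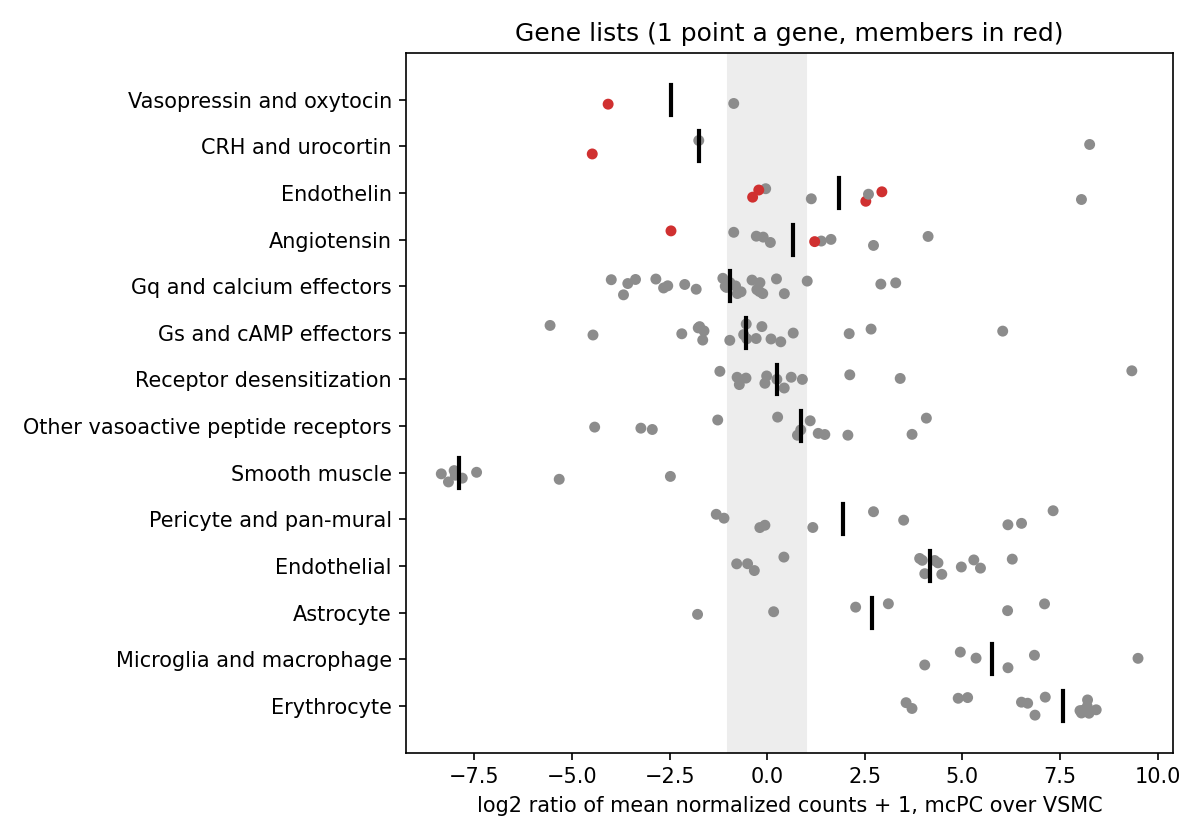
log2 ratio of mean normalized counts plus 1, mcPC over VSMC, for genes of the peptide systems, effectors and cell type markers. Each point is a gene, red for the 8 genes of the peptide systems described, black bars are medians and the grey band marks less than a 2-fold difference. Ucn2 stands at 8.26, far from the rest of the CRH and urocortin list, Kel at 8.05 is far from the rest of the endothelin list but among the erythrocyte markers, and smooth muscle and erythrocyte markers lie at opposite ends.

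Of 27 listed effector genes of Gq-coupled receptors, 13 were at least 2-fold higher in VSMCs and 3 in mcPCs, against 13.8% and 21.6% of all listed genes. Their median log2 ratio was -0.96, with no test of the list. The lowest were Myl9, the regulatory light chain of smooth muscle myosin, with 11235 TPM in VSMCs against 197 TPM in mcPCs (log2 ratio -4.00), and the cation channel Trpc6, with 4.28 and 0.0931 TPM (log2 ratio -3.68). Mylk, the kinase of that light chain, had 815 and 19.4 TPM (log2 ratio -3.57). At the other end were Itpr3, a calcium release channel, with 0.478 and 1.40 TPM (log2 ratio 3.29), and the protein kinase C gene Prkcb, with 1.97 and 4.33 TPM (log2 ratio 2.91).

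Among the effectors of Gs and cyclic AMP, the pathway of CRHR2, 18 of 19 genes have a row, Gnas with 2 rows. Of these 19 rows, 7 were at least 2-fold higher in VSMCs and 3 in mcPCs, set beside 13.8% and 21.6% over all listed genes. The median log2 ratio was -0.54. Adcy3 and Adcy5 encode adenylyl cyclases and had the lowest ratios. Adcy3 had 279 TPM in VSMCs against 1.71 TPM in mcPCs (log2 ratio -5.56) and Adcy5 229 and 2.94 TPM (log2 ratio -4.46). Adcy7 had 0.150 and 3.08 TPM (log2 ratio 6.03) and Adcy1 0.0657 and 0.140 TPM (log2 ratio 2.66). The most abundant were Prkar1a, a regulatory subunit of protein kinase A, with 1005 and 90.8 TPM, and the main row of Gnas, the Gs alpha subunit itself, with 860 and 257 TPM (log2 ratio 0.097).

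The genes most like each of the 8 were sought among all listed genes with a symbol. The distance was Euclidean, over log2 of the mean TPM plus 0.1 in each of the 2 cell types. Avpr1a lay nearest to Ak1, with 107.8 TPM in VSMCs against 1.91 TPM in mcPCs (distance 0.083), and Cd200 (distance 0.19). Crhr2 lay nearest to Cabp1, with 102.7 and 1.08 TPM (distance 0.18), and to an unnamed gene, AABR07053136.1. Ednra lay nearest to Mmp14 and LOC100911576, at distances of 0.023 and 0.038. For Agtr1a the nearest were Lrrc39 and Mamdc2, for Ednrb Blk and Cxadr, for Agtrap Tbc1d16 and Nupr2, for Edn1 Kcnj9 and Zfp366, and for Edn3 AABR07024637.1 and Nt5m. With only 2 values per gene, such neighbours share a level and a ratio.

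The size of the ratios depended on the scale, since the median log2 ratio over all listed genes was -1.72 on TPM as deposited and -0.55 on counts scaled to the same total. Over the 6 scales plotted, the log2 ratio of Avpr1a ran from -5.86 to -3.98 and that of Crhr2 from -6.29 to -4.16. That of Agtr1a ran from -3.16 to -1.45. Ednrb and Edn1 were higher in mcPCs on all 6, by 0.97 to 3.12 and by 0.71 to 2.95. Agtrap turned to the VSMC side on TPM as deposited, and Ednra to the mcPC side on counts without erythrocyte genes.

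**Figure D5:**
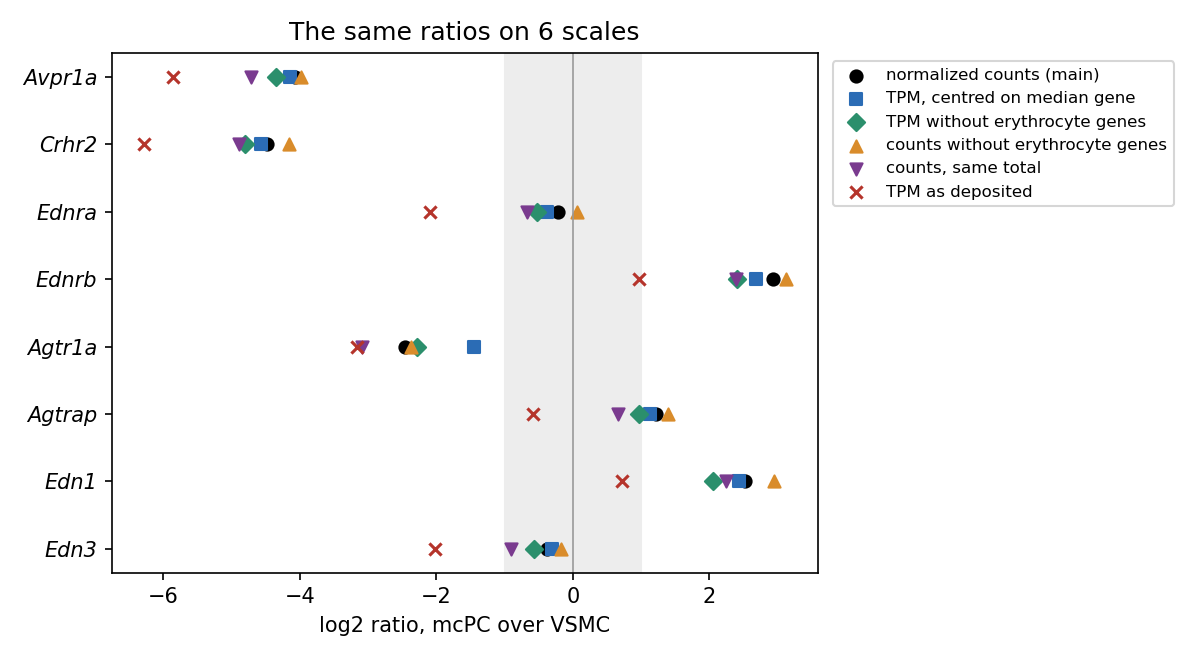
log2 ratio, mcPC over VSMC, of the 8 genes on 6 scales (1 symbol each), with the grey band for less than a 2-fold difference. TPM as deposited shifts all genes to the left, the other 5 scales leave Avpr1a and Crhr2 at or below -3.98, and Agtrap alone of the genes past 2-fold changes side.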

How the data were processed

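The data are a single table with a row per gene and the authors' mean of each cell type. The authors trimmed reads with Eoulsan, ran Salmon 0.8.0 against Ensembl transcripts (build Rnor_6.0), collapsed transcripts to genes with tximport and normalized with DESeq2. The table holds the genes read at least once in every sample. For their final dataset the authors then removed genes under 0.8 TPM in VSMCs, because endothelial transcripts were more abundant in mcPCs. They also removed the genes most enriched in mcPCs, mainly those of erythrocytes. Neither removal was applied here, and Ednrb, Edn1 and Ucn2 lie under the 0.8 TPM limit. TPM values are the authors' means per cell type. Estimated counts are the authors' means per sequencing run. Of these, 64.4% (VSMC) and 67.2% (mcPC) are whole when multiplied by 12 runs (tolerance 0.001), so reads over the 3 samples were taken as 12 times the deposited value. Normalized counts are deposited signal values, divided by DESeq2's factors. Deposited fold changes, standard errors and p-values are the authors' comparison and were not used. The test planned for values per sample was not run, because the table holds means.

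Ratios were computed with a pseudocount of 1 normalized count, or 0.1 for TPM and scaled counts. Counting intervals are exact Poisson intervals for levels and exact binomial (Clopper-Pearson) intervals for ratios, at 95%. Reads without molecular identifiers are not independent molecules, so these cover counting error only. The erythrocyte genes are a fixed list plus genes described as hemoglobin. Genes named are the 8, genes of their peptide systems (some are not reported here), the 2 highest and 2 lowest ratios and 2 highest TPM of other lists, the 2 nearest genes, and markers, of which some were picked after their values were seen. The genes and lists were chosen with earlier results of these data known. Promoters are from RefSeq (GRCr8) and were matched by symbol. The planned comparison of protein sequences was not made. Only the ratio and its interval were tested on simulated reads, with known fold changes and no variation between samples beyond depth and counting error. Values were computed with scipy 1.17.1, numpy 2.4.6 and pandas 2.3.3 under Python 3.11.15, and drawn with matplotlib 3.10.9.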

Additional observations from a re-analysis of the deposited data

How the results depend on the processing

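No paired analysis was possible because the table gives means of each cell type, and for the same reason no sample was left out in turn and no other test was run. The alternatives below are planned ones, and ratios are log2 of mcPC over VSMC. On TPM as deposited they were -5.86 for Avpr1a, -6.29 for Crhr2, -2.09 for Ednra, 0.97 for Ednrb, -3.16 for Agtr1a, -0.58 for Agtrap (a change of sign), 0.71 for Edn1 and -2.02 for Edn3. On that scale 5 of the 8 genes were at least 2-fold higher in VSMCs and 0 in mcPCs, with 10564 and 1023 of all listed genes. TPM without erythrocyte genes gave -4.34 for Avpr1a, -4.80 for Crhr2, -0.53 for Ednra, 2.41 for Ednrb and 0.97 for Agtrap. TPM relative to the median gene gave -0.38 for Ednra, 1.13 for Agtrap and -1.45 for Agtr1a, whose mcPC level is below the 0.1 TPM added. Counts scaled to the same total gave -4.71 for Avpr1a, -4.89 for Crhr2, -0.67 for Ednra, 2.40 for Ednrb, 0.66 for Agtrap and -0.91 for Edn3, with 4190 of all genes at least 2-fold higher in VSMCs. Counts without erythrocyte genes gave -4.16 for Crhr2, 0.062 for Ednra, 1.39 for Agtrap and -0.18 for Edn3. A pseudocount of 10 gave -1.94 for Agtr1a, 1.61 for Edn1 and 2.39 for Ednrb. The authors set a minimum of 0.8 TPM in VSMCs for their final dataset. With that minimum required, Ednrb and Edn1 drop out by construction. This leaves 1 of the genes, and 1590 of all genes, at least 2-fold higher in mcPCs. Medians of lists changed sign on TPM as deposited for the angiotensin list (-0.72), the desensitization list (-1.53, and -0.18 with equal count totals) and the other peptide receptors (-0.50, and -2.94 with the 0.8 TPM minimum). They also did for the endothelin list (-0.085 on TPM as deposited, -0.13 with the 0.8 TPM minimum), the endothelial and astrocyte lists (-0.42 and -0.81 with that minimum) and the fibroblast list (-0.091 on TPM as deposited). The causes were not tested. Genes under about 100 reads in a cell type, such as Edn1 and Agtr1a, are limited by depth.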

Other observations

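Receptors of other vasoactive peptides lay on both sides. Of 33 such genes, 13 have a row, 4 of them at least 2-fold higher in VSMCs and 6 in mcPCs, against 13.8% and 21.6% of all listed genes. Their median log2 ratio was 0.86, and turned to -0.50 on TPM as deposited and to -2.94 among the genes with at least 0.8 TPM in VSMCs. Npy1r, for neuropeptide Y, had 346 TPM in VSMCs against 4.64 TPM in mcPCs (log2 ratio -4.42), and Vipr2, for vasoactive intestinal peptide, 6.67 and 0.209 TPM (log2 ratio -3.24). At the other end, Adcyap1r1, the receptor of the neuropeptide PACAP, had 0.443 and 2.18 TPM (log2 ratio 4.08), and Npr2, for C-type natriuretic peptide, 0.188 and 0.745 TPM (log2 ratio 3.71). Calcrl, a subunit of the CGRP receptor, was the most abundant of the list in mcPCs, with 14.1 TPM. It had 27.3 TPM in VSMCs, and its log2 ratio of 0.86 lay within the 2-fold limits.

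Of 13 listed genes that end the signal of such receptors, 1 was at least 2-fold higher in VSMCs, the arrestin gene Arrb1 (log2 ratio -1.21), and 3 were in mcPCs, against 13.8% and 21.6% of all listed genes. Their median log2 ratio was 0.25, and turned to -1.53 on TPM as deposited and to -0.18 on counts scaled to the same total. Rgs5 and Rgs4, which shorten Gq and Gi signalling, were the most abundant, with 6298 and 447 TPM in VSMCs against 1703 and 171.1 TPM in mcPCs (log2 ratios -0.060 and 0.44). The receptor kinase Grk5 had a log2 ratio of -0.77, but Adrbk1 and Adrbk2, also receptor kinases, had 0.61 and 0.90, and the other arrestin gene, Arrb2, had 2.12. These 3 were added after their values were seen. Rgs1 had 0.140 and 32.8 TPM (log2 ratio 9.34) and Rgs3 3.93 and 11.95 TPM (log2 ratio 3.41), in the direction of the leukocyte marker Ptprc (log2 ratio 9.50), whose part in them was not tested.

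Markers of neurons, oligodendrocytes and fibroblasts were also measured. All 5 neuron markers with a row were at least 2-fold higher in mcPCs (median log2 ratio 4.18, summed TPM 22.9, most of it Tubb3 with 15.7). So were 5 of 6 oligodendrocyte markers (median 1.68) and 4 of 5 fibroblast markers (median 1.61) with a row. Without a row were 5 of 10 neuron, 1 of 7 oligodendrocyte and 1 of 6 fibroblast markers.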
